A study of Mus musculus with 15 samples.

Results

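Macrophage pattern-recognition and scavenger receptor genes were followed in RAW 264.7 cells, an established mouse macrophage-like line, cultured with or without RANKL. The group was a fixed list of 9 genes, chosen with earlier results of these data known. A gene counted as measured where a probe set was annotated to its symbol alone. By that rule 7 of the 9 genes, with 11 probe sets, were found among 8251 genes and 12422 probe sets. Tlr2 and Tlr4 had no such probe set and were not analysed here. The measured genes were Adgre1, Msr1, Ly86, Cd14, Lyz2, Cd36 and Mrc1, and 1 further probe set that lists Lyz2 together with Lyz1 was left out. The list follows the name of the receptor class, although Lyz2 encodes an enzyme and Ly86 a secreted partner of a receptor.

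Each of the 15 arrays held RNA of 1 sample of this line. RANKL-treated cells gave 1 array at day 1 and 2 arrays at each of days 2, 4 and 5, and control cells without RANKL gave 1 array at day 1, 2 arrays at each of days 2, 3 and 4, and 1 array at day 5. Both groups grew in alpha-MEM with 10% serum, and both received serum-free medium, with or without RANKL, on days 0 and 3. The labels describe RANKL cells as mononuclear at days 1 and 2 and as multi-nuclear at days 4 and 5, and control cells as mononuclear throughout. All samples came from the same line, and the labels do not say that replicates are separate cultures, so p-values may reflect technical spread alone.

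Through its receptor RANK, the cytokine RANKL drives precursors of the macrophage lineage to become bone-resorbing osteoclasts, which form by fusion. Macrophages survey their surroundings through pattern-recognition receptors, which bind microbial products such as bacterial lipopolysaccharide (LPS), and through scavenger receptors, which take up modified lipoproteins, dead cells and microbes. Adgre1 encodes F4/80, the adhesion receptor by which mouse macrophages are commonly recognised. Msr1 encodes scavenger receptor A, Cd36 a class B scavenger receptor that also takes up fatty acids, and Mrc1 the mannose receptor. Cd14 hands LPS to the TLR4 complex, Ly86 encodes MD-1, the partner of the TLR-like receptor RP105, and Lyz2 encodes macrophage lysozyme, which cleaves bacterial cell walls.

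Macrophage markers were read to check the labelled cell type. Of 11 macrophage markers, 8 had a signal above the array's median on all 15 arrays, and Mrc1 was above it on none. Adgre1, Cd14, Msr1, Lyz2 and Mrc1 are members of the group under study and so give no separate check. Outside the group, Csf1r, Spi1, Cd68 and Ptprc were above the median on every array, and Itgam and Fcgr1 on some arrays only. On the RANKL arrays of day 2, Itgam had signals of 42.4 and 46.2, against array medians of 134 and 111. The summed signal of 6 osteoclast markers was 5598 on the RANKL array of day 1, 12179 to 13526 at day 2, 16555 to 20155 at day 4 and 28131 to 31168 at day 5. In control cells that sum was 6192 at day 1 and between 1064 and 2848 on the later arrays. Of these 6, Calcr and Itgb3 were above the array median on no array, so the other 4 carried the sum. Among markers of other cell types, Flt3 and Itgax of dendritic cells and Col1a2 of stromal cells were above the array median on every array. On at least 1 array, 3 of 4 dendritic cell, 4 of 6 stromal, 2 of 3 B cell and 2 of 3 erythroid markers were above it. So were 2 of 5 neutrophil markers and 1 of 4 T cell markers. Cd3d, Cd3e, Cd3g, Mpo, Ngp, Ltf, Ccr7, Col3a1, Pdgfrb, Cd79b and Alas2 were above it on none. The summed macrophage markers, which include the bright members Cd14 and Lyz2, ran from 35599 to 64474 in RANKL cells and from 52905 to 68117 in control cells. The array medians ran from 102 to 148 in MAS5 signal units, and replicate arrays correlated at 0.975 to 0.984 across probe sets.

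Promoter sequence was listed for 5 of the 9 genes in the RefSeq table of build GRCm38.p6. It is shown for Ly86, whose RNA had the largest RANKL difference of the group at day 2, and for Lyz2, whose difference was small, as 250 bases ending at the base before the transcript start, 5′ to 3′ on the gene's strand. The Ly86 stretch lies at chr13:37345095-37345344 on the plus strand and the Lyz2 stretch at chr10:117282273-117282522 on the minus strand. Capitals mark matches to GGAAA, the core motif of NFAT factors, on either strand.
Ly86: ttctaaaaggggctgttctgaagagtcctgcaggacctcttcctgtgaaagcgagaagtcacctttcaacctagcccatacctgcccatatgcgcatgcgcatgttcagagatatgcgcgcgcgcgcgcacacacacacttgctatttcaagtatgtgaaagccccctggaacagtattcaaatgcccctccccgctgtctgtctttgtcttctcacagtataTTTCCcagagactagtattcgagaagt
Lyz2: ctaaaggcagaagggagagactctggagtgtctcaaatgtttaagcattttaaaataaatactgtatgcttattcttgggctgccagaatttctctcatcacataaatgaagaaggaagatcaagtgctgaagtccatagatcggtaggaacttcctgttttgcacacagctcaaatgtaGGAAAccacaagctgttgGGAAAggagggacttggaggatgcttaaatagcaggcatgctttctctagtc

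The NFAT core occurred 1 time in the Ly86 stretch and 2 times in the Lyz2 stretch, and 55.6% of all 32851 promoter stretches of that length held it. The PU-box GAGGAA of the myeloid factor PU.1 (in 23.3% of all stretches) and the AP-1 motif TGANTCA (in 6.7%) had 0 matches in both stretches on either strand. With matches to 1 motif alone, no 2 motifs overlapped in either stretch.

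In what follows, values of a gene are those of its leading probe set, the one with the highest mean log2 signal, unless another is named. Adgre1, Msr1 and Ly86 were lower in RANKL cells than in control cells at day 2, each with a limma adjusted p under 0.05. At day 4 their estimates lay within 1.5-fold of control, though both RANKL arrays of Adgre1 were still below both control arrays. At day 5 the RANKL arrays of these genes lay below the control array, but Adgre1 alone passed that threshold. For none of these genes did the change in RANKL effect from day 2 to day 4, or from day 4 to day 5, pass. Cd14 and Lyz2 were bright on every array, and both RANKL arrays of day 5 lay below the control array. Cd36 and Mrc1 were dim.

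**Figure D1:**
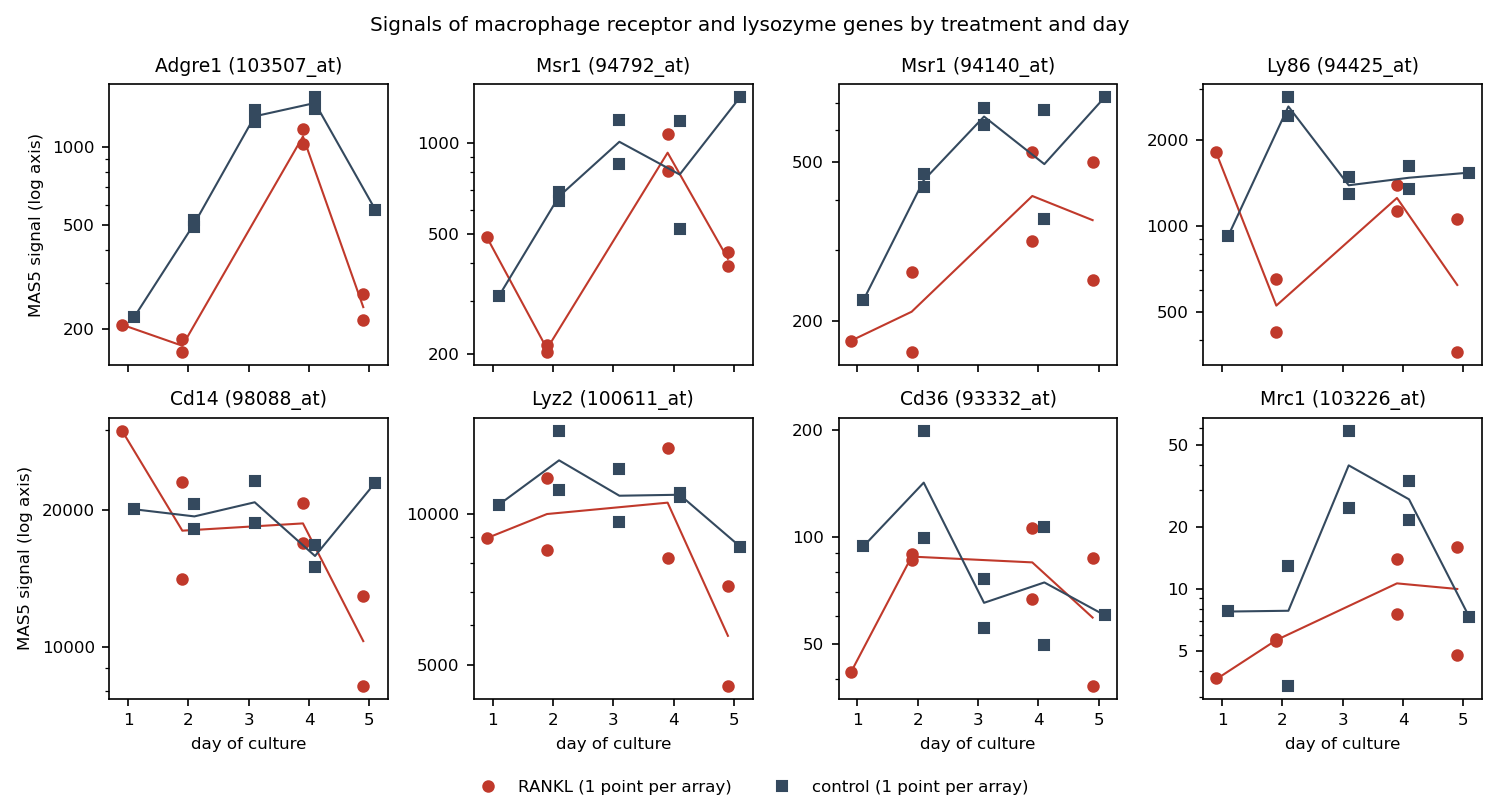
MAS5 signal (log axis) against day of culture for the leading probe set of each of the 7 genes and the other Msr1 probe set, with 1 point per array and lines through group means; RANKL cells have no array at day 3. RANKL points of Adgre1, Msr1 and Ly86 lie below both control points at day 2, and those of Msr1 and Ly86 reach the control points at day 4.

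Adgre1 had signals of 182 and 162 in RANKL cells at day 2, against 493 and 523 in control cells. At day 4 the signals were 1178 and 1024 in RANKL cells, against 1555 and 1405 in control cells. At day 5 they were 272 and 215 in RANKL cells, against 574 on the control array. RANKL signals lay below control signals on each of these days, and the gap was narrowest at day 4 as a fold, though not in signal units. At day 1 the signal was 207 with RANKL and 221 without, and control cells of day 3 had 1243 and 1386. From highest to lowest, the group means ran control day 4, control day 3, RANKL day 4, control day 5, control day 2, RANKL day 5, control day 1, RANKL day 1 and RANKL day 2. Among neighbours in that order, array values overlapped between RANKL day 5 and control day 1 alone. The other Adgre1 probe set was dim, between 1.5 and 36.8 on all arrays.

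Msr1 had signals of 202 and 213 in RANKL cells at day 2, against 643 and 688 in control cells. At day 4 RANKL cells had 1069 and 806, against 520 and 1179 in control cells. At day 5 RANKL cells had 436 and 390, against 1417 on the control array. The groups did not overlap at days 2 and 5, and at day 4 both RANKL values fell between the control values, which themselves were far apart. At day 1 the signal was 488 with RANKL and 310 without. Group means were highest in control day 5, control day 3, RANKL day 4, control day 4 and control day 2, of which control day 3 and the next 3 groups overlapped their neighbours, and lowest in RANKL day 2.

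The other Msr1 probe set gave 265 and 167 in RANKL cells at day 2, against 466 and 432 in control cells. At day 4 it gave 528 and 317 in RANKL cells, against 359 and 672 in control cells. At day 5 it gave 499 and 253 in RANKL cells, against 724 on the control array. Like the leading probe set, it separated the groups at days 2 and 5 and not at day 4. At day 1 its order was the other way round from the leading probe set, with 179 in RANKL cells and 225 in control cells.

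Ly86 had signals of 425 and 653 in RANKL cells at day 2, against 2809 and 2424 in control cells. At day 4 RANKL cells had 1130 and 1386, against 1341 and 1616 in control cells. At day 5 RANKL cells had 362 and 1054, against 1534 on the control array. The groups were far apart at day 2 and overlapped at day 4, and at day 5 the RANKL arrays differed widely from each other. At day 1 the order was the other way round, with 1806 in RANKL cells and 921 in control cells, 1 array each. Ly86 was highest in control day 2, followed by RANKL day 1, and lowest in RANKL day 2. Control cells of days 3, 4 and 5 and RANKL day 4 followed each other in the order of group means with overlapping values.

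The comparison at day 2 asks which of these genes differed while RANKL cells were still labelled mononuclear. Adgre1, Ly86 and Msr1 were called lower in RANKL cells than in control cells, and no member was called higher. From the single day 1 arrays to day 2, Adgre1 went from 207 to 182 and 162 in RANKL cells. In control cells it went from 221 to 493 and 523. By their leading probe sets, Msr1 and Ly86 were lower at day 2 than at day 1 in RANKL cells and higher in control cells. The other Msr1 probe set was also higher in control cells. In RANKL cells its day 2 signals of 265 and 167 lay on both sides of 179 at day 1. These steps from day 1 were not tested. Ly86 was 4.72-fold lower on the log2(signal + 32) scale (-2.24 ± 0.37, limma standard error; adjusted p = 0.0257). Msr1 was 2.91-fold lower (-1.54 ± 0.31; limma adjusted p = 0.0488), and Adgre1 was 2.65-fold lower (-1.40 ± 0.18; limma adjusted p = 0.00916). In bulk RNA, fewer cells expressing a gene and less of its RNA per cell cannot be told apart. Osteoclast marker sums, given above, were higher in RANKL cells at the same day, and their part in these differences was not tested.

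So 3 of 7 leading probe sets passed the limma threshold of adjusted p under 0.05 at day 2, all lower, where 0.853% of all 12422 probe sets passed in either direction. All 7 differences were negative, with a median of -0.54 against 0.01 over all probe sets, of which 48.8% were negative. That median is the value of Cd36, which was -0.13 without control replicate 1, and 2 of the 7 signs turned without 1 array, Mrc1 to 0.091 (control replicate 2) and Cd14 to 0.25 (RANKL replicate 1). In 4 of 7 genes (Adgre1, Ly86, Msr1 and Cd36) both RANKL arrays lay below both control arrays, as they did for 19.2% of all probe sets. Because the members were chosen with earlier results of these data known, these shares are a description alone. The Msr1 call stood close to the threshold: it was lost in 14 of 18 alternative settings, where adjusted p ran from 0.017 to 0.25, and the other Msr1 probe set did not pass (-0.99 ± 0.36, limma adjusted p = 0.346). The Ly86 call was lost when any 1 of the 4 arrays of day 2 was left out (-2.53 to -1.95), and the Adgre1 call without control replicate 2 or either RANKL replicate of day 2 (-1.37, -1.48 and -1.33 in these fits).

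Differences of the other members at day 2 did not pass. Cd14, among the brightest probe sets on these arrays, had signals of 14107 and 22994 in RANKL cells at day 2, against 20623 and 18176 in control cells. Its RANKL values enclosed the control values, and the difference was -0.10 (95% interval -0.745 to 0.54). Lyz2 had 8465 and 11844 in RANKL cells, against 14713 and 11188 in control cells, a difference of -0.36 (-1.02 to 0.31). Cd36 had 86 and 90 in RANKL cells, against 199 and 99 in control cells, a difference of -0.54 (-1.40 to 0.33) that rests on 1 high control array. Mrc1 had signals of 5.6 and 5.7 in RANKL cells, against 3.4 and 12.9 in control cells, and its difference was -0.08 (-0.60 to 0.43). These intervals include changes of more than 1.5-fold downward for Cd14, Lyz2, Cd36 and Mrc1 alike.

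At day 4, when RANKL cells were labelled multi-nuclear, no member passed the test in either direction, where 0.266% of all probe sets passed by limma. The differences lay between -0.47 for Mrc1 and 0.24 for Cd14, with 4 of 7 negative and a median of -0.05 against -0.02 over all probe sets. Among the genes called lower with RANKL at day 2, Ly86 differed by -0.23 (95% interval -1.04 to 0.58) and Msr1 by 0.23 (-0.45 to 0.92). Adgre1 differed by -0.42 (-0.81 to -0.02), a signal 1.34-fold lower with an unadjusted limma p of 0.0406 and an adjusted p of 0.588. Each of these 3 was thus estimated within 1.5-fold of control at day 4, but every interval reaches past that limit, downward for Ly86 and Adgre1 and upward for Msr1. Both RANKL arrays lay below both control arrays for Adgre1 and Mrc1, 2 of 7 genes, against 19.8% of all probe sets, and above them for Cd14.

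The direction at day 4 depended on single arrays or on the scaling for several genes. For Msr1 the estimate was -0.33 without control replicate 1 and 0.80 without control replicate 2, the 2 arrays that read 520 and 1179. Cd14 had 20668 and 16896 in RANKL cells at day 4, against 16763 and 14975 in control cells, and its estimate was -0.088 after quantile normalization, while it stayed positive without any 1 array (0.093 to 0.38). Lyz2 had 8185 and 13610 in RANKL cells, against 10847 and 11048 in control cells, so the RANKL arrays stood on both sides of the controls, and the estimate was 0.31 without RANKL replicate 1 and -0.42 without RANKL replicate 2.

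**Figure D2:**
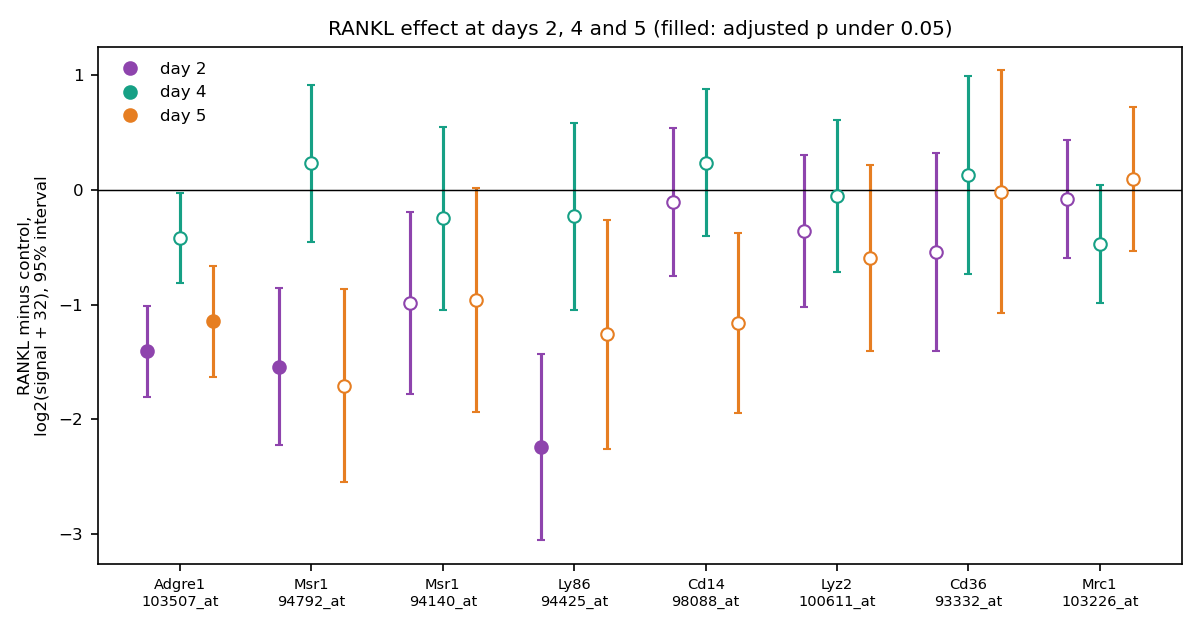
RANKL minus control difference in log2(signal + 32) at days 2, 4 and 5 for each gene, with the 95% interval of the limma fit; filled points passed at an adjusted p under 0.05. Adgre1, Msr1 and Ly86 sit between -2.24 and -1.40 at day 2 and between -0.42 and 0.23 at day 4, and Adgre1, Msr1, Ly86 and Cd14 are at or below -1.14 at day 5.

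Whether the RANKL effect differed between days 2 and 4 was tested directly, as the day 4 effect minus the day 2 effect. The difference was 2.01 ± 0.52 for Ly86, 1.77 ± 0.44 for Msr1 and 0.99 ± 0.26 for Adgre1. Unadjusted limma p-values were 0.00261, 0.00191 and 0.0025, and adjusted p was 0.395, 0.386 and 0.395, so none passed. Over all probe sets this comparison called 1 probe set, 0.00805% of 12422, with 924 at an unadjusted p under 0.05. The difference was positive for 6 of 7 members, with a median of 0.67 against -0.02 over all probe sets, of which 52.1% were negative. That median is the value of the dim Cd36, which ran from 0.26 to 1.08 over the alternatives. Without 1 array the sign turned for Cd14 (-0.010, RANKL day 2 replicate 1) and Lyz2 (-0.061, RANKL day 4 replicate 2). For each of Ly86, Msr1 and Adgre1 the difference kept its sign in all 18 alternatives run on the same probe set. The ranges were 1.72 to 2.30, 1.21 to 2.34 and 0.76 to 1.13. The other Msr1 probe set gave a smaller difference of 0.74 ± 0.51 (limma adjusted p = 0.81), and the dim second Adgre1 probe set gave 0.037 ± 0.41. For Cd14 (0.34), Lyz2 (0.30), Cd36 (0.67) and Mrc1 (-0.39) the adjusted limma p was between 0.849 and 0.923.

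A value below control at day 2 with a near-control value at day 4 was not limited to these receptors. Of the 67 probe sets called lower at day 2, 38 (56.7%) were within 1.5-fold of control at day 4, and Adgre1, Msr1 and Ly86 were among these. The other 29 were still lower by more than that, and 4 of the 67 were also called lower at day 4. In the plot of day 4 against day 2 the 3 genes lie left of the vertical axis and close to the horizontal one.

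**Figure D3:**
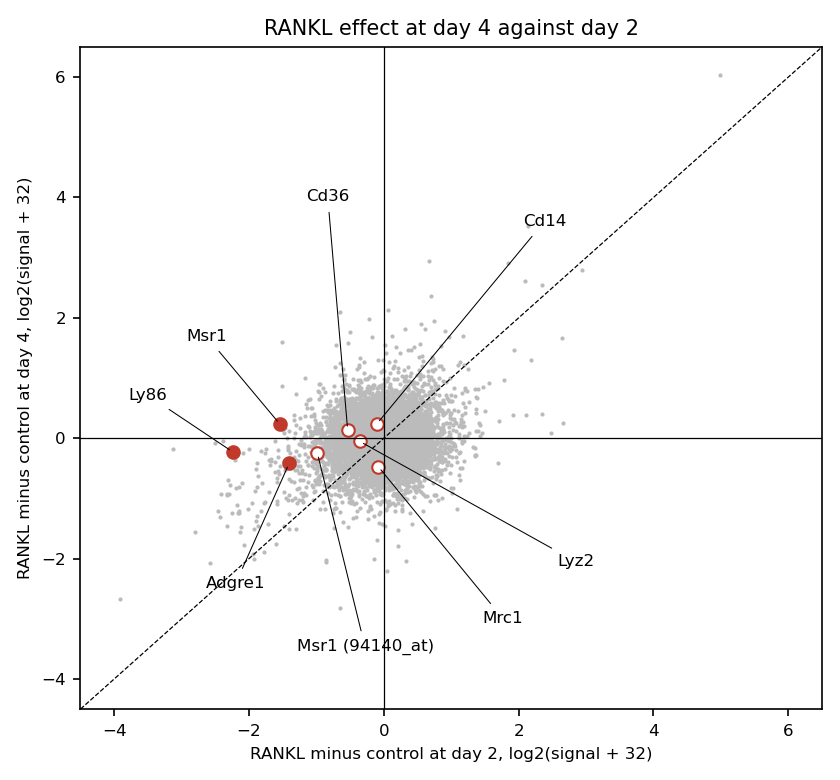
RANKL minus control difference at day 4 (vertical) against day 2 (horizontal), both in log2(signal + 32), for all 12422 probe sets (grey) and the members (red rings, filled where the day 2 difference passed). Ly86 at -2.24, Msr1 at -1.54 and Adgre1 at -1.40 on the horizontal axis have vertical positions of -0.23, 0.23 and -0.42, and the dashed line marks equal effects.

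The comparison of day 4 with day 2 within each treatment shows which cells moved. Adgre1 rose 5.54-fold in RANKL cells (2.47 ± 0.18, limma adjusted p = 0.000104), the smallest p of all 12422 probe sets, and 2.80-fold in control cells (1.48 ± 0.18, limma adjusted p = 0.00279). Msr1 rose 4.01-fold in RANKL cells by its leading probe set (2.00 ± 0.31, limma adjusted p = 0.00246), but its other probe set, also above the array median on all 15 arrays, gave 1.82-fold and did not pass (0.86 ± 0.36, limma adjusted p = 0.158). For the leading probe set the control difference was 0.23 (95% interval -0.45 to 0.91), or 0.80 without control replicate 1 of day 4 and -0.34 without replicate 2. Ly86 differed by 1.20 ± 0.37 in RANKL cells (limma adjusted p = 0.0576, past the threshold in 4 of 18 alternatives) and by -0.81 ± 0.37 in control cells (limma adjusted p = 0.282). Adgre1 rose in both treatments, and neither Ly86 difference passed.

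Changes between these days were widespread, so the calls have a high background. In RANKL cells 2 of 7 members were called, both higher, where 12.5% of all probe sets were called. In control cells 1 of 7, Adgre1, was called, where 4.47% were. The days were also the main division of the arrays: the first principal component ran from -44.2 to -17.5 over the 6 arrays of the first 2 days and from 12.8 to 32.8 over later arrays, except RANKL day 5 replicate 2 at -10.6.

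At day 5 Adgre1 was again lower with RANKL, by 2.21-fold (-1.14 ± 0.22, limma adjusted p = 0.038). It was the only one of 7 members past the threshold, where 0.918% of all probe sets passed, and the call was lost in 11 of 18 alternatives (adjusted p up to 0.17, -0.996 without RANKL replicate 2). Of the other members, Msr1 differed by -1.70 ± 0.38 (limma adjusted p = 0.0631, past the threshold in 3 of 18 alternatives) and Ly86 by -1.26 ± 0.45 (limma adjusted p = 0.236). The RANKL arrays of day 5 disagreed on Ly86: the difference was -1.99 without replicate 2 (limma adjusted p = 0.0284) and -0.53 without replicate 1 (limma adjusted p = 0.476). The day 5 comparison has 1 control array, whose spread is assumed to be that of the other groups.

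Cd14 and Lyz2, which had no call at days 2 and 4, had their lowest signals in RANKL cells of day 5. At day 1, with 1 array each, Cd14 had 29864 in RANKL cells, the highest of its 9 group values, against 20068 in control cells, a difference of 0.57, and Lyz2 had 8954 in RANKL cells, against 10452 in control cells. Cd14 had 12914 and 8212 in RANKL cells, against 22973 on the control array, a difference of -1.16 ± 0.36 that did not pass (limma adjusted p = 0.167). Lyz2 had 7192 and 4532 in RANKL cells, against 8621 on the control array, a difference of -0.59 ± 0.37 (limma adjusted p = 0.525). RANKL day 5 had the lowest group mean of all 9 groups for both genes.

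In all, 5 of 7 members (Adgre1, Msr1, Ly86, Cd14 and Lyz2) had both RANKL arrays of day 5 below the control array, against 26.9% of all probe sets. Of the 7 differences 6 were negative, with a median of -1.14 against 0.11 over all probe sets, of which 37.5% were negative. Cd36 (38 and 87 in RANKL cells, against 60 in control cells) and Mrc1 (16 and 5 in RANKL cells, against 7 in control cells) overlapped.

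A comparison added after the values were seen set the RANKL effect at day 5 against that at day 4. The difference was -1.94 ± 0.49 for Msr1, -1.39 ± 0.46 for Cd14, -1.03 ± 0.59 for Ly86 and -0.73 ± 0.29 for Adgre1. None of the 7 passed (limma adjusted p of 0.351 for Msr1, 0.402 for Cd14, 0.604 for Ly86 and 0.446 for Adgre1), where 0.00805% of all probe sets passed. Within RANKL cells, Adgre1 fell 4.12-fold between days 4 and 5 (-2.04 ± 0.18, limma adjusted p = 0.00152), again the smallest p of all probe sets, and it was called in all 18 alternatives. It was 1 of 7 members called there, where 0.636% of all probe sets were called. Msr1 (-1.11), Ly86 (-0.97), Lyz2 (-0.88) and Cd14 (-0.86) had negative differences between these days in RANKL cells that did not pass, with limma adjusted p between 0.164 and 0.321. Without single arrays, Ly86 ran from -1.70 (without RANKL day 5 replicate 2, limma adjusted p = 0.0376) to -0.24 (without replicate 1), and Cd14 from -1.18 to -0.53 (without replicate 1 and replicate 2 of RANKL day 5). The other Msr1 probe set gave -0.18 ± 0.36.

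Cd36 and Mrc1 gave little information at these signal levels. Cd36 was above the array median on 1 of 15 arrays, control day 2 replicate 1, and ran from 38.2 to 106 in RANKL cells, with a median of 86.5, and from 49.7 to 199 in control cells, with a median of 85.2. Its second probe set never exceeded 2.7. Mrc1 ran from 3.7 to 16 in RANKL cells, with a median of 5.7, and from 3.4 to 58.4 in control cells, with a median of 17.3. Its highest values were the 4 control arrays of days 3 and 4, all of them below the median of their arrays. The second Lyz2 probe set was likewise dim, between 3.2 and 80.4.

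Other genes of the same pathways were read from lists chosen with earlier results of these data known. Of 40 LPS and Toll-like receptor signalling genes 21 were measured. None passed at days 2, 4 or 5, where 0.853%, 0.266% and 0.918% of all probe sets passed, so few calls were to be looked for. Their median RANKL difference was -0.24 at day 2 (17 of 21 negative, against 48.8% of all probe sets), 0.08 at day 4 and 0.01 at day 5. Between days 2 and 4, 3 of the 21 rose in RANKL cells, a share close to the 12.5% called over all probe sets. Tlr6, a partner of TLR2, rose between days 2 and 4 (1.05 ± 0.27, limma adjusted p = 0.0266), with signals of 256 and 286 at day 4, against 151 and 84.6 at day 2. Unc93b1, the chaperone of endosomal Toll-like receptors, rose likewise (1.49 ± 0.16, limma adjusted p = 0.000589) and fell between days 4 and 5 (-1.29 ± 0.16, limma adjusted p = 0.00556). The phosphatase gene Ptpn6 was the other one that rose (1.00 ± 0.16, limma adjusted p = 0.00294). Control signals of these 3 genes were also higher at day 4 than at day 2, though none was called higher. For Tlr6 they were 268 and 262 at day 4, against 147 and 182 at day 2. For Unc93b1 they were 1242 and 1181, against 895 and 857.5, and for Ptpn6 2884 and 2329, against 1990.5 and 1995.9. In control cells 2 of the 21 fell between days 2 and 4, where 4.47% of all probe sets were called, namely the chaperone gene Hsp90b1 (-1.12 ± 0.26, limma adjusted p = 0.0321) and the transcription factor gene Irf5 (-0.71 ± 0.17, limma adjusted p = 0.0376).

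Of 36 other scavenger and surface receptor genes 25 were measured, and 1 passed at each of days 2, 4 and 5, where 0.853%, 0.266% and 0.918% of all probe sets passed. Itgam, the integrin chain of complement receptor 3, was lower with RANKL at day 2 (-1.87 ± 0.32, limma adjusted p = 0.0257), with signals of 42.4 and 46.2 in RANKL cells, against 205 and 297 in control cells. Itgax, the chain of complement receptor 4 that also marks dendritic cells, was higher with RANKL at day 4 (2.10 ± 0.29, limma adjusted p = 0.0116), with 1297 and 1744 in RANKL cells, against 301 and 352 in control cells. The summed signal of 4 dendritic cell markers ran from 909 to 3231 in RANKL cells and from 765 to 1588 in control cells. Because Itgax is part of that sum, it gives no separate reading of the Itgax difference. Itgax was the only 1 of the 4 called at day 4, and their median difference was 0.20. A part of dendritic-like cells in the Itgax difference was not tested. Fcgr2b, the inhibitory IgG receptor, was lower with RANKL at day 5 (-2.73 ± 0.30, limma adjusted p = 0.00216). The list's median difference was -0.23 at day 2, -0.03 at day 4 and -0.02 at day 5.

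Between days 2 and 4, 9 of these 25 rose in RANKL cells and none fell, where 12.5% of all probe sets were called in either direction. Itgam (3.49 ± 0.32), Fcgr2b (2.79 ± 0.25) and Anpep, an aminopeptidase of myeloid surfaces (2.21 ± 0.33), were the largest, and Itgax, Ptprc, Cd47, Lrp1, Sirpa and Itgb2 rose by 1.29 to 2.10 (limma adjusted p of 0.0021 or less for each of the 9). In control cells 6 of the 25 rose (Itgam, Fcgr2b, Anpep, Cd47, Ptprc and Sirpa) and none fell, where 4.47% of all probe sets were called. Between days 4 and 5, where 0.636% of all probe sets were called, 4 of the 25 fell in RANKL cells, namely Fcgr2b (-2.39 ± 0.25), Itgax (-1.54 ± 0.29), Lrp1 (-1.11 ± 0.19) and Sirpa (-1.08 ± 0.20), with limma adjusted p between 0.00176 and 0.0435.

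**Figure D4:**
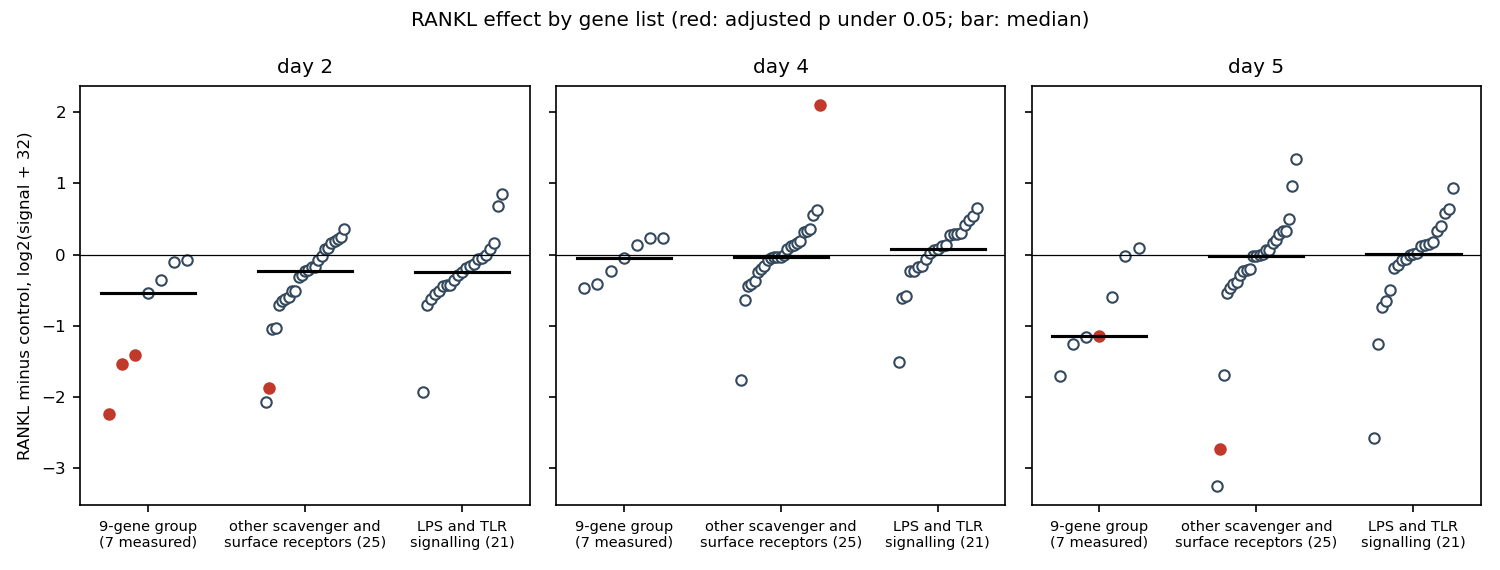
RANKL minus control difference in log2(signal + 32) at days 2, 4 and 5 for the 7 measured members, 25 other scavenger and surface receptor genes and 21 LPS and Toll-like receptor signalling genes, with 1 point per gene, ordered by value, and a bar at each list's median. Member medians are -0.54, -0.05 and -1.14 at days 2, 4 and 5, and red points passed at an adjusted p under 0.05.

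Likeness to each member was described by Pearson's r over the 9 group means of log2(signal + 32), among 4126 genes in the upper 50% of mean signal. The means share arrays, scaling and the division by day, so r is a description. Adgre1 was most like Nfe2l2 (0.979), a transcription factor of the antioxidant response, Pld4 (0.978) and Sirpa (0.975), the receptor for CD47. Msr1 was most like Skap2 (0.977), Retreg1 (0.971) and Necap1 (0.97), Ly86 most like Ptk2b (0.951), Diaph1 (0.917) and Tom1 (0.911), and Cd14 most like Fkbp8 (0.944). Among the members, r was 0.796 between Msr1 and Adgre1, 0.649 between Msr1 and Ly86, 0.466 between Ly86 and Adgre1, and -0.022 between Cd14 and Adgre1. High values were not limited to the genes called at day 2: r was 0.776 between Adgre1 and the dim Mrc1, and 0.622 between Cd36 and Lyz2.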

How the data were processed

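RNA of RAW 264.7 cells was measured on 15 Affymetrix arrays, 1 per sample. The deposited values are MAS5 signals, a linear intensity per probe set, per the submitters' processing notes; the version is not given in the sources used here. The 2% trimmed mean was 500 on every array, and no further normalization was applied. Genes were named from the platform annotation, and sequences came from RefSeq (GRCm38.p6). Of 12488 probe sets, 66 manufacturer controls were left out, and 12422 were tested as log2(signal + 32) with no filter.

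A mean for each of 9 groups was fitted with limma 3.58.1 in R 4.3.3 (eBayes with intensity trend, 6 residual degrees of freedom), two-sided, with Benjamini-Hochberg adjustment over all probe sets within a comparison and a threshold of 0.05. It was tested on simulated data. The leading probe set of a gene has the highest mean log2 value. The number of arrays limits the precision. All members were named. Of the other lists, up to 6 genes past the threshold per comparison were to be named. For the other receptors in RANKL cells between days 2 and 4, all 9 called genes were named. The fit was repeated with other pseudocounts (1 and 100), after quantile normalization, on the brighter 50% of probe sets, with no trend, with a replicate block, with other probe sets and without each of 12 arrays. The members and lists were chosen with earlier results of these data known.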

Additional observations from a re-analysis of the deposited data

Results flagged for a closer look

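The RANKL effect differed between days by its own limma test for 1 gene in each of the interaction comparisons, and neither is a member of the receptor group; they are named because the counts are small, and were chosen after their values were seen. The RANKL effect on Ank, a pyrophosphate transporter, was greater at day 4 than at day 2 by 2.26 on the log2 scale (limma adjusted p = 0.0344). The RANKL effect on the chemokine gene Ccl2 differed by -3.28 between day 5 and day 4 (limma adjusted p = 0.0388), with signals of 891 and 1326 in RANKL cells of day 5 and 1723 and 1285 in RANKL cells of day 4, against 4786 on the control array of day 5 and 710 and 577 on those of day 4. Control arrays other than that of day 5 ran from 301.8 to 717.9.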

How the results depend on the processing

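Of 46 member results, 34 kept their direction in every alternative run on the same probe set, and 12 changed sign in at least 1; none of the 12 was past the threshold. The count of 106 at day 2 was 68 with no intensity trend, and the 114 at day 5 was 244 in the upper 50% of probe sets. The 555 for control cells, day 4 minus day 2, became 879 in the upper 50%, and the 79 for RANKL cells, day 5 minus day 4, became 147 there and 34 with no intensity trend. The single call for the day 4 minus day 2 effect was 5 in the upper 50% and 0 with quantile normalization or no trend. That for day 5 minus day 4 was 3 with a pseudocount of 1, 2 in the upper 50%, and 0 with quantile normalization or no trend.

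With each array left out in turn, counts ran from 2 (without control day 2 replicate 2) to 147 (without RANKL day 5 replicate 2) for day 2, from 9 (without replicate 2 of either day 4 group) to 54 (without RANKL day 4 replicate 1) for day 4, and from 52 to 355 (without RANKL day 5 replicate 2 and replicate 1) for day 5. They ran from 0 to 4 for the day 4 minus day 2 effect, 541 (without RANKL day 2 replicate 2) to 1607 for RANKL cells and 36 (without control day 2 replicate 1) to 657 for control cells between these days, 0 to 29 (without RANKL day 5 replicate 1) for the day 5 minus day 4 effect and 14 (without RANKL day 4 replicate 2) to 181 (without RANKL day 5 replicate 1) for RANKL cells between those days. Signs that turned gave ranges of -0.46 to 0.25 for Cd14 at day 2 and -0.010 to 0.69 for its day 4 minus day 2 effect, -0.25 to 0.52 and -0.40 to 0.37 for Cd36 at days 4 and 5, -0.42 to 0.31 for Lyz2 at day 4 and -0.061 to 0.67 for its day 4 minus day 2 effect. They were -0.25 to 0.091 and -0.10 to 0.29 for Mrc1 at days 2 and 5, -0.33 to 0.80 and -0.67 to 0.18 for the leading and the other Msr1 probe set at day 4, and -0.34 to 0.80 for Msr1 in control cells.

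Other reversals were Cd14 at day 4 with quantile normalization (-0.088), Cd36 at day 5 with a pseudocount of 100 (0.0044), and second probe sets of Adgre1 (0.056, day 5 minus day 4 effect), Cd36 (0.013, day 2), Lyz2 (0.058 at day 5, -0.35 for day 4 minus day 2) and Msr1 (-0.25, day 4). The causes were not tested.

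Replicate numbers did not pair the arrays: over 15 pairs of groups the correlation of replicate differences ran from -0.17 to 0.12. With the replicate block the count was 64 at day 5, 36 for RANKL cells between days 4 and 5, and 0 for both interactions. Few arrays, dim signals of Cd36 and Mrc1 and the single control array of day 5 limit what these data can show.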

Other observations

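Of 16 genes for ligands and lipid handling partners of Cd36 and Msr1, 13 were measured. Between days 2 and 4, RANKL cells gained the cholesterol exporter gene Abca1 (2.80 ± 0.56), the lipid droplet gene Plin2 (1.86 ± 0.34), the lysosomal lipase gene Lipa (1.27 ± 0.26) and the cholesterol transporter gene Npc1 (1.15 ± 0.21), with limma adjusted p between 0.00488 and 0.00925; these 4 of 13 stand beside 12.5% of all probe sets called. Abca1 (2.37 ± 0.56) and Plin2 (1.39 ± 0.34) also rose in control cells between these days, with limma adjusted p of 0.0368 and 0.0433, as did the cholesterol exporter gene Abcg1 (1.22 ± 0.24, limma adjusted p = 0.0196), and the lipoprotein lipase gene Lpl fell there (-1.08 ± 0.23, limma adjusted p = 0.0259). Plin2 was lower with RANKL at day 5 (-2.70 ± 0.42, limma adjusted p = 0.0132), and Lipa fell in RANKL cells between days 4 and 5 (-1.39 ± 0.26, limma adjusted p = 0.0435). In control cells 3 of 13 were called higher and 1 lower between days 2 and 4, where 4.47% of all probe sets were called. For the RANKL effect at day 5, 1 of 13 was called, against 0.918% of all probe sets. In RANKL cells between days 4 and 5 it was also 1 of 13, against 0.636%. None of the 13 passed for the RANKL effect at day 2 or day 4, where 0.853% and 0.266% of all probe sets passed. The medians of the 13 were -0.17 and 0.06 at these days.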
